A study of Homo sapiens with 6 samples.

Results

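Genes of 8 families of enzymes that write or erase marks on histones and DNA were followed in LNCaP cells after exposure to urolithin A. They are the DNA methyltransferases (DNMT), the mainly lysine-directed methyltransferases (KMT and SETD), the lysine demethylases (KDM) and the arginine methyltransferases (PRMT). The others are the lysine acetyltransferases (KAT), the histone deacetylases (HDAC) and the sirtuins (SIRT). These are family names, and some members are inactive or act on other proteins. Members were taken by symbol: a family name followed by a number and, where present, a letter, on probe sets annotated to a single gene. This set was chosen with earlier results of these data known. The rule left out 3 KDM genes by name, KDM5C, KDM5D and KDM6A. It gave 71 genes, measured by 241 probe sets, out of 18239 genes in all. LNCaP is an established line of androgen-responsive human prostate adenocarcinoma, and urolithin A is a product that gut bacteria form from ellagic acid of the diet. The groups were 3 arrays of untreated control cells, for which the treatment protocol names saline, and 3 arrays of cells that had received urolithin A at 40 µM and were harvested after 24 h. Both groups grew in the same serum-containing medium, the solvent of urolithin A is not given, and the RNA was measured on the Affymetrix U219 array type.

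These enzymes set how tightly DNA is packed and which genes can be read. Acetyl groups placed by KAT enzymes loosen chromatin and are removed by HDAC and SIRT enzymes; sirtuins need NAD for this. Methyl groups on histone lysines act by position: H3K4 methylation marks active promoters and enhancers, H3K36 methylation transcribed gene bodies, and H3K9 and H3K27 methylation silent chromatin. Each is placed by SET domain enzymes and removed by KDM enzymes. In prostate cells several of them, among them KDM1A and the KDM4 enzymes, are known as coregulators of the androgen receptor.

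Values are on a log2 scale with the control median of each probe set taken away, which leaves differences but no levels. For that reason no gene could be said to be abundant or near background, and the markers of the cell line could not be checked as levels. In RNA of whole cultures, a change in the mix of cells and a change in RNA per cell cannot be told apart. Nothing in the labels ties replicate arrays to separate cultures; p-values here therefore reflect the spread among the arrays alone, and that spread may be technical. The number of arrays limits the precision. Control replicate 3 and urolithin A replicate 3 had low 18S ribosomal RNA signal, at -0.45 and -0.48, against -0.22 to 0.05 on the other arrays. Control replicate 3 was the control furthest from 0 in 31 of the 71 members (43.7%) and in 34.9% of all genes; results without it are given where it changed a call.

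Most of these genes differed little between the groups. Of the 71 members, 3 rose, 3 fell and 65 did not pass (limma's moderated test, Benjamini-Hochberg adjusted p under 0.05 over all 18239 genes). The risen genes were the demethylases KDM4A and KDM5B and the H3K4 methyltransferase gene SETD1B, and the fallen ones were the arginine methyltransferases PRMT9, PRMT7 and PRMT3. The 6 calls are 8.45% of the members, where 10.2% of all genes were called, so the share called among the members lay near that of the array as a whole. The median size of the log2 change, sign set aside, was 0.10 among the members and 0.10 among all genes. The largest change was that of KDM4A at 1.52-fold, and 0 members changed 2-fold. For 63 of the 65 members that did not pass, the 95% interval of the log2 change lay inside 1.5-fold in either direction. The exceptions were SETD9 and KDM6B. These intervals are of gene means, which can average probe sets that differ, and in 8 of the 65 members a probe set passed alone. When each array was instead scaled on its hybridization controls, a setting chosen after the data were seen, 334 genes were called higher and 312 lower, and KDM4A was the single member called.

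**Figure D1:**
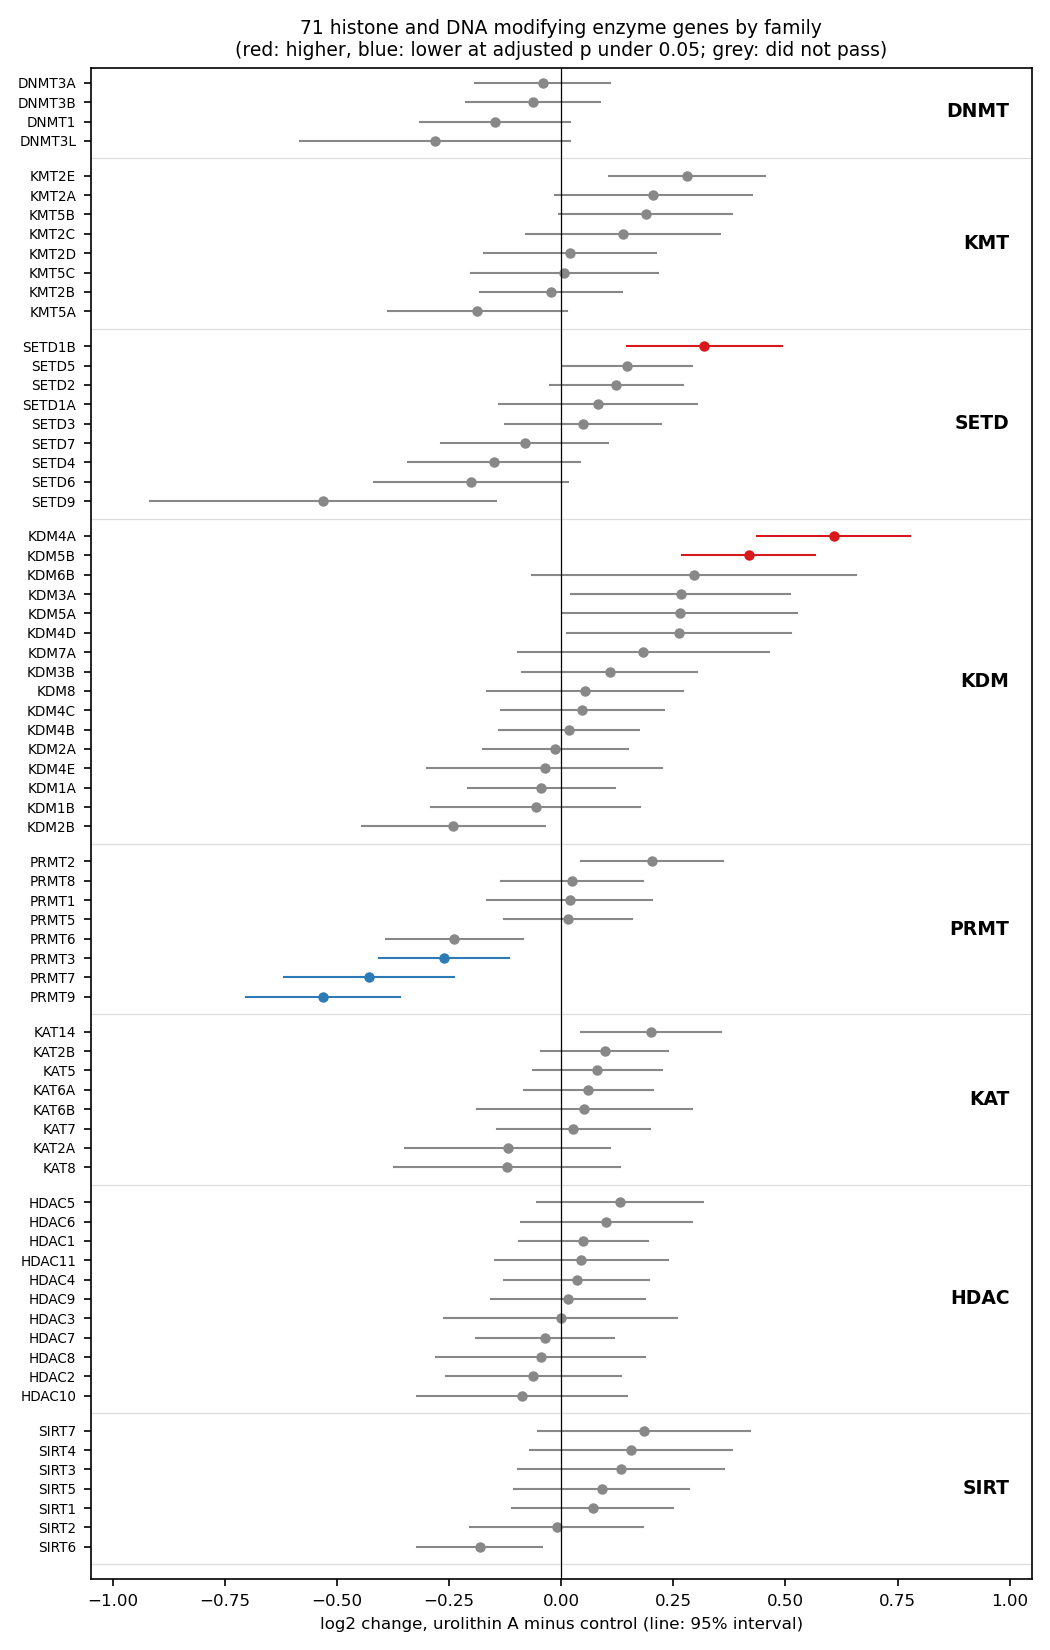
Log2 change (urolithin A minus control, horizontal axis) of the 71 members, ordered within each family, with lines for the 95% interval of limma's fit on 3 against 3 arrays. The 3 genes in red (KDM4A, KDM5B, SETD1B) passed as higher and the 3 in blue (PRMT9, PRMT7, PRMT3) as lower, while the 11 HDAC genes all lie between -0.09 and 0.13.

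The sequence before the transcription start is shown for the 4 members with the smallest adjusted p, to place them in the genome. Each line gives the 250 bases before a RefSeq start on GRCh38.p14, 5′ to 3′ on the strand of the gene; capitals mark matches on either strand to the motifs named after the lines. For PRMT7 the downstream one of 2 overlapping entries is printed.
KDM4A (chr1:43649899-43650148, plus strand): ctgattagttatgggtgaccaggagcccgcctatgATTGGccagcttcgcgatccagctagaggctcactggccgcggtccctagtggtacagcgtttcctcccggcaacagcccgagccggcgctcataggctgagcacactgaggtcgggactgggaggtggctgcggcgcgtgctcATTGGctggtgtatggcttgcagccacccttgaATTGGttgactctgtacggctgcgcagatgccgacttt
KDM5B (chr1:202808422-202808671, minus strand): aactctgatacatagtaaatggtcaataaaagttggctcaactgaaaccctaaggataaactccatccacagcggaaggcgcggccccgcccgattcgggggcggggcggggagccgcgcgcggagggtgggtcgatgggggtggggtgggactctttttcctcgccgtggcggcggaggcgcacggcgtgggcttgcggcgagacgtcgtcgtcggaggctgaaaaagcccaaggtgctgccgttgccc
PRMT9 (chr4:147684164-147684413, minus strand): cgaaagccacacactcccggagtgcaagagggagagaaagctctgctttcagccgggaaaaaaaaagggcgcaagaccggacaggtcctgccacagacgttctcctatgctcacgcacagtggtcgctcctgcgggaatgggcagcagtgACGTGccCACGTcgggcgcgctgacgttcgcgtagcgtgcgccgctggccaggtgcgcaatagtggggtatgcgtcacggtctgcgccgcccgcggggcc
PRMT7 (chr16:68310864-68311113, plus strand): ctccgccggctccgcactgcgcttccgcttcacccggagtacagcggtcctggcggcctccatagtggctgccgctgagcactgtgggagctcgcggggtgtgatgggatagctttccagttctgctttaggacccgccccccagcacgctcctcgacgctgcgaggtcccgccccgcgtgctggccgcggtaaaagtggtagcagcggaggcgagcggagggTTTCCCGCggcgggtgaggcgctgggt
The motifs searched were the E2F site (TTTGGCGC, TTTCGCGC, TTTCCCGC or TTTGCCGC), the CCAAT box (CCAAT), the hypoxia response element core (ACGTG), the androgen receptor half-site (AGAACA) and the NRF1 site. KDM4A held 3 CCAAT boxes, PRMT9 held 2 hypoxia response element cores and the printed entry of PRMT7 held 1 E2F site. KDM5B and the PRMT7 entry that is not printed held none of the 5. Among all 35116 promoter windows of this length, 32.0% held a CCAAT box, 18.5% an ACGTG core, 12.4% an androgen receptor half-site, 5.07% an NRF1 site and 2.79% an E2F site. Among the 101 windows of the 64 members found in the RefSeq table the shares were 29.7%, 20.8%, 4.95%, 6.93% and 2.97%. A match is a description of the letters and not evidence of a bound site.

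The largest rise was that of KDM4A, which removes methyl groups from H3K9 and H3K36 and whose promoter is the first of the sequences shown. Controls 1, 2 and 3 stood at 0.01, -0.15 and 0.02, whereas treated arrays 1, 2 and 3 stood at 0.54, 0.52 and 0.64. All 3 treated arrays lay far above all controls. The log2 change was 0.61 (SE 0.07, limma adjusted p = 0.00212), and both probe sets rose on their own. The call held without each single array and under every other setting tried.

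KDM5B, an H3K4 demethylase, rose 1.34-fold. The controls read 0.00, -0.06 and 0.05 and the treated arrays 0.40, 0.38 and 0.47, in replicate order, with no overlap. The log2 change was 0.42 (SE 0.07, limma adjusted p = 0.00599). Its 4 probe sets fell into pairs: 2 rose on their own, by 0.71 and 0.68 on the log2 scale, and the other two had changes of 0.19 and 0.09 that did not pass. Which transcripts the probe sets detect was not examined, and the difference between them was not tested.

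SETD1B, a catalytic subunit of the SET1 complexes that place most H3K4 trimethylation, passed with a smaller change of 1.25-fold. Its single probe set read -0.10, 0.00 and 0.01 in the controls and 0.23, 0.23 and 0.41 in the treated arrays. In the fit of all probe sets the same values did not pass (limma adjusted p = 0.0673). The groups were apart, yet the call (log2 change 0.32, SE 0.08, limma adjusted p = 0.0325) ended when any of the 6 arrays was left out, at adjusted p from 0.0598 without urolithin A replicate 2 to 0.107 without control replicate 1. SETD1A, its paralogue, had a log2 change of 0.08 (95% interval -0.14 to 0.30).

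Among the arginine methyltransferases the deepest fall was that of PRMT9, which dimethylates arginines symmetrically and is known for a splicing factor substrate. Its single probe set read 0.13, 0.00 and 0.00 in the controls and -0.53, -0.56 and -0.38 in the treated arrays. The log2 change was -0.53 (SE 0.08, limma adjusted p = 0.00405), a 1.45-fold fall that held without each single array. PRMT7, which leaves arginines monomethylated, read 0.07, 0.03 and -0.15 in the controls and -0.43, -0.37 and -0.54 in the urolithin A arrays. It fell 1.35-fold (log2 change -0.43, SE 0.08, limma adjusted p = 0.0145), and both of its probe sets fell on their own. This call ended without control replicate 1 (limma adjusted p = 0.0551) or control replicate 2 (limma adjusted p = 0.0561).

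PRMT3, a cytosolic enzyme that methylates a protein of the small ribosomal subunit, fell 1.20-fold. It read 0.03, 0.02 and -0.05 in the controls and -0.24, -0.31 and -0.24 in the urolithin A arrays, so the groups were apart by a small margin. The call (log2 change -0.26, SE 0.06, limma adjusted p = 0.035) ended without any single array, at adjusted p from 0.0629 without control replicate 3 to 0.109 without urolithin A replicate 2, and none of its 3 probe sets passed alone. With a gene's median probe set in place of the mean, the log2 change of PRMT3 was -0.21 (limma adjusted p = 0.0896).

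**Figure D2:**
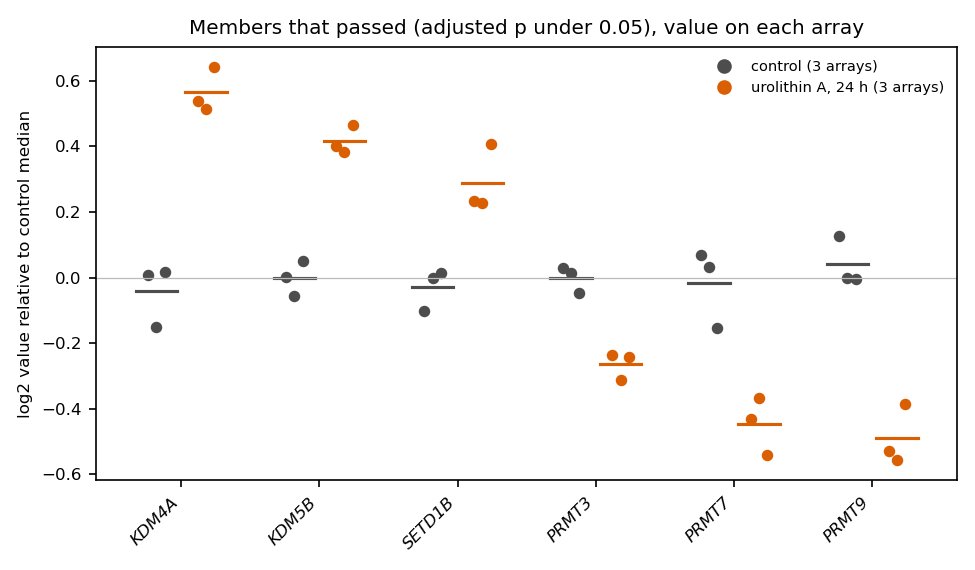
Log2 value relative to the control median (vertical axis) on each of the 3 control arrays (grey) and 3 urolithin A arrays (orange) for the 6 members that passed; short lines are group means. Every treated array lies outside the control range for each gene, with the widest gap for KDM4A and the narrowest for PRMT3.

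The other arginine methyltransferases did not move together. Of the 8 genes of the family, 3 fell and 5 did not pass, where 5.31% of all genes fell. The family median was -0.11 against 0.01 over all genes, and -0.24 over the 7 genes left when probe sets marked as sharing sequence were dropped. The gene lost was PRMT5, whose single probe set bears that mark and had a change of 0.01. The median of -0.24 is then the value of PRMT6. PRMT6, which methylates histone H3 near its tail end, had a log2 change of -0.24 (SE 0.07, limma adjusted p = 0.059) and passed with the median of its probe sets (adjusted p = 0.045). PRMT2 lay on the opposite side at 0.20 (95% interval 0.04 to 0.36, limma adjusted p = 0.113), and all 7 of its probe sets had positive changes. PRMT1, the main enzyme of asymmetric arginine dimethylation, differed by 0.02 (95% interval -0.17 to 0.20) and the membrane-bound PRMT8 by 0.02 (95% interval -0.13 to 0.18).

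PRMT5, the main enzyme of symmetric arginine dimethylation, read 0.00, 0.01 and -0.08 in the controls and -0.02, 0.01 and -0.01 in the urolithin A arrays, a log2 change of 0.01 (95% interval -0.13 to 0.16). Its partner WDR77, which forms the core complex with it, read 0.07, 0.01 and -0.04 in the controls and -0.64, -0.47 and -0.72 in the urolithin A arrays. WDR77 fell 1.54-fold (log2 change -0.63, SE 0.08, limma adjusted p = 0.00246), and COPRS, which brings PRMT5 to histones, fell 1.30-fold. Both calls held without each single array. BTG1, which binds PRMT1, fell 1.21-fold, a call that ended in all 6 fits without an array, at adjusted p up to 0.103. Of the 6 measured genes of this list 3 fell and 3 did not pass, where 5.31% of all genes fell. The 3 that did not pass were the PRMT5 adaptors CLNS1A at -0.03 and RIOK1 at -0.19 and the mitochondrial arginine methyltransferase gene NDUFAF7 at -0.14.

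**Figure D3:**
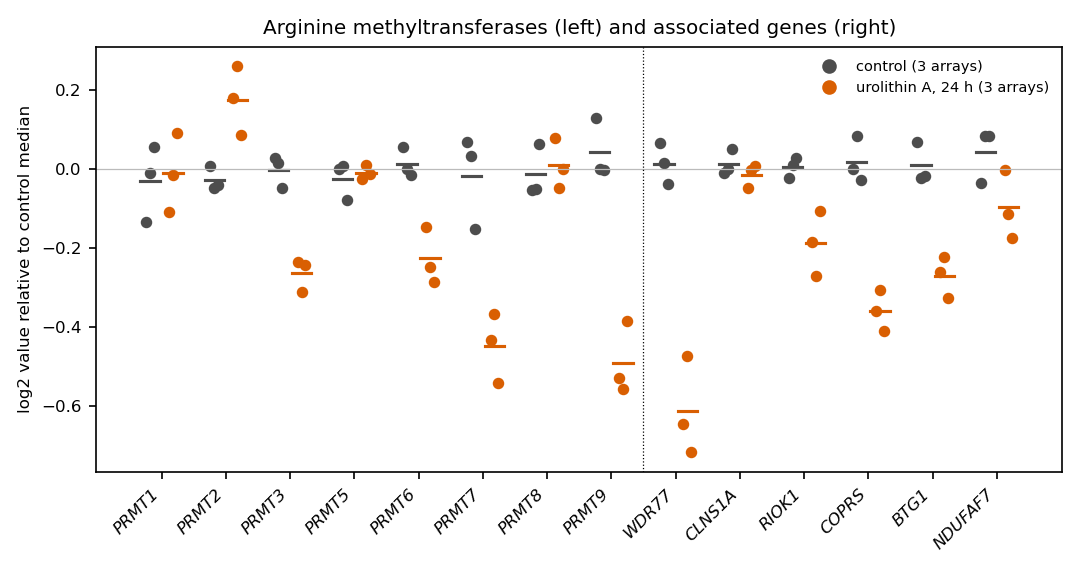
Log2 value relative to the control median (vertical axis) on each array for the 8 PRMT genes (left of the dotted line) and 6 associated genes (right), with control arrays in grey, urolithin A arrays in orange and lines at the group means. PRMT7, PRMT9, WDR77 and COPRS lie well below their controls, while the points of PRMT1, PRMT5 and PRMT8 overlap.

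Of the 16 KDM genes 2 rose and 14 did not pass, where 4.85% of all genes rose. Changes were positive in 11 and negative in 5 of them, against 9677 positive and 8562 negative over all genes. The median change of the family was 0.08 (0.01 over all genes). It was 0.04 without control replicate 1 and 0.16 without control replicate 3. Medians of the other families were 0.09 (SIRT), 0.08 (KMT), 0.06 (KAT), 0.05 (SETD), 0.01 (HDAC), -0.11 (DNMT) and -0.11 (PRMT). Of the 14, a further 3 positive changes and 1 negative one had an unadjusted p under 0.05. Over all 18239 genes, 2288 positive and 2105 negative changes did. KDM3A, an H3K9 demethylase known to be induced in hypoxia and to act with the androgen receptor, read -0.09, -0.09 and 0.29 in the controls and 0.36, 0.27 and 0.28 in the urolithin A arrays. Control replicate 3 alone overlapped the treated arrays. The log2 change of KDM3A was 0.27 (SE 0.11, limma adjusted p = 0.169), and it passed without control replicate 3, at 0.39 (limma adjusted p = 0.023). KDM5A, the paralogue of KDM5B, showed the same layout, with -0.05, -0.06 and 0.31 in the controls and 0.34, 0.20 and 0.46 in the treated arrays. Its log2 change of 0.26 did not pass (limma adjusted p = 0.202), although all 7 of its probe sets had positive changes.

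KDM6B, which removes H3K27 methylation and is induced by many stimuli, varied widely within the treated group, at 0.04, 0.29 and 0.69, against 0.25, -0.06 and -0.06 in the controls. Its groups overlapped, and the log2 change of 0.30 had a 95% interval of -0.06 to 0.66. Without probe sets marked as sharing sequence it was 0.46 and passed (limma adjusted p = 0.0486). That value rests on a single probe set, which did not pass in the fit of all probe sets (limma adjusted p = 0.0662). KDM7A, which acts on H3K9 and H3K27, had a change of 0.18 and KDM4D, on H3K9, one of 0.26, with overlapping arrays in both. Of the remaining KDM4 genes, KDM4C stood at 0.05, KDM4B at 0.02 and KDM4E at -0.04. The lowest of the family was KDM2B, a demethylase that also brings a Polycomb complex to unmethylated CpG islands. It read 0.02, -0.02 and -0.02 in the controls and -0.28, -0.39 and -0.06 in the treated arrays (log2 change -0.24, SE 0.09, limma adjusted p = 0.137). Without urolithin A replicate 3 its change was -0.33 and passed (limma adjusted p = 0.0407). KDM1A, the amine oxidase LSD1, differed by -0.04 (95% interval -0.21 to 0.12) and its paralogue KDM1B by -0.06. The single probe set of KDM1A is marked as sharing sequence. KDM3B stood at 0.11, KDM8 at 0.05 and KDM2A at -0.01.

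Among the KMT genes, 0 of 8 passed with limma, and 1 (KMT2E) had an unadjusted p under 0.05. KMT2E, a relative of the MLL enzymes, read -0.01, 0.01 and -0.02 in the controls and 0.17, 0.24 and 0.41 in the urolithin A arrays, without overlap. Its log2 change of 0.28 (SE 0.08) lay just short of the threshold (limma adjusted p = 0.053), and 8 of its 9 probe sets had positive changes. With the median of the probe sets in place of the mean, KMT2E passed (0.27, limma adjusted p = 0.0439), as did KMT5B (0.28, limma adjusted p = 0.0455). KMT2A, the MLL1 gene, differed by 0.21 (95% interval -0.01 to 0.43) with positive changes in all 8 probe sets, and KMT2C by 0.14, KMT2D by 0.02 and KMT2B by -0.02. The H4K20 enzymes went different ways: KMT5A, which places the first methyl group and peaks in mitosis, had a change of -0.19 (95% interval -0.39 to 0.01), and KMT5B, which adds further ones, 0.19 (SE 0.08, limma adjusted p = 0.219). KMT5C stood at 0.01. All 5 probe sets of KMT5A are marked as sharing sequence.

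Beside SETD1B, the SETD family held 8 genes that did not pass. SETD9, a little-studied gene with 1 probe set, read 0.03, 0.00 and -0.27 in the controls and -0.28, -0.55 and -1.01 in the treated arrays. The treated arrays lay just below all controls, and in each group replicate 3, the array with low 18S signal, was the lowest. Its log2 change of -0.53 did not pass (SE 0.17, limma adjusted p = 0.0899), and it passed without urolithin A replicate 1 (limma adjusted p = 0.0383). SETD2, the H3K36 trimethylase, was higher on every treated array than on any control, at a change of 0.12 (95% interval -0.02 to 0.27). SETD5 had a change of 0.15, the actin methyltransferase SETD3 0.05, SETD7, which methylates H3K4 and p53, -0.08 (95% interval -0.27 to 0.10), SETD4 -0.15 and SETD6 -0.20.

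The gene means of the DNA methyltransferases were all slightly negative and none passed: limma called 0 of 4, with 0 at an unadjusted p under 0.05. DNMT1, which copies methylation to the new strand after replication, read -0.03, 0.13 and -0.01 in the controls and -0.09, -0.07 and -0.19 in the urolithin A arrays. The treated arrays lay just below the controls, at a log2 change of -0.15 (95% interval -0.32 to 0.02, limma adjusted p = 0.267). The de novo enzymes DNMT3A and DNMT3B differed by -0.04 (95% interval -0.19 to 0.11) and -0.06 (95% interval -0.21 to 0.09). Both means average probe sets of both signs, from -0.37 to 0.35 for DNMT3A and from -0.33 to 0.23 for DNMT3B. No probe set of either gene passed alone. The catalytically inactive cofactor gene DNMT3L differed by -0.28 (95% interval -0.58 to 0.02), where control replicate 3 alone stood at 0.45. Of the partners of these enzymes 2 passed. HELLS, a remodelling enzyme needed for DNA methylation, fell 1.68-fold, from -0.08, 0.27 and -0.01 in the controls to -0.66, -0.46 and -0.94 in the treated arrays (log2 change -0.75, SE 0.13, limma adjusted p = 0.0111). UHRF1, which guides DNMT1 to half-methylated DNA, fell 1.26-fold (limma adjusted p = 0.0379), a call that held without urolithin A replicate 2 and ended without each of the other five arrays (adjusted p up to 0.119). In that list 2 of 13 measured genes fell and 11 did not pass. DNA replication genes, with which DNMT1, UHRF1 and HELLS are known to be co-expressed, were lower in the same arrays: 16 of 32 measured fell, 0 rose (4.85% of all genes rose and 5.31% fell), and their array medians were 0.01, 0.03 and -0.20 in the controls and -0.44, -0.32 and -0.59 in the treated arrays. Their part in the values of the methylation genes was not tested.

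The changes of the histone deacetylases ran from -0.09 for HDAC10 (95% interval -0.32 to 0.15) to 0.13 for HDAC5 (95% interval -0.06 to 0.32). Limma called 0 of 11, with 0 at an unadjusted p under 0.05. Of class I, the nuclear enzymes of the main corepressor complexes, HDAC1 had a change of 0.05 (95% interval -0.09 to 0.19), HDAC2 of -0.06 (95% interval -0.26 to 0.13) and HDAC3 of -0.0014 (95% interval -0.26 to 0.26). The signal-regulated class IIa genes HDAC4, HDAC7 and HDAC9 had changes of 0.03, -0.04 and 0.01. HDAC6, the tubulin deacetylase, read -0.12, 0.13 and 0.09 in the controls and 0.07, 0.12 and 0.21 in the treated arrays, a change of 0.10 with overlapping groups. Its 7 probe sets ran from -0.52 to 0.40, and its change was 0.23 with their median and -0.0049 without those marked as sharing sequence. HDAC11 differed by 0.04.

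The gene mean of HDAC8, -0.05, hid probe sets that differed widely. Of its 8 probe sets, 5 had positive and 3 negative changes, from -1.03 to 0.59. The lowest was the single HDAC8 probe set to pass alone and fell from -0.33, 0.12 and 0.00 in the controls to -1.61, -0.86 and -0.84 in the treated arrays (limma adjusted p = 0.0196 over all probe sets); its name marks it as open to cross-hybridization. The next lowest had a change of -0.64 and the highest, whose name bears the same mark, one of 0.59. Neither of these passed. Over all members, 16 of 241 probe sets passed alone (6.64%, against 8.44% of all probe sets with a single symbol), in 12 genes. Of these 11 were higher, where 4.02% of all such probe sets were, and 5 lower, where 4.42% were. In 8 of these genes the gene mean did not pass. Examples are KMT5B, with 2 of 6 probe sets up by 0.52 and 0.40, KMT5A, with 1 of 5 at -0.53, HDAC11, with 1 of 5 up by 0.51, and KDM4B, with 1 of 4 up by 0.46. Of the 58 members with several probe sets, 32 had changes of both signs among them.

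**Figure D4:**
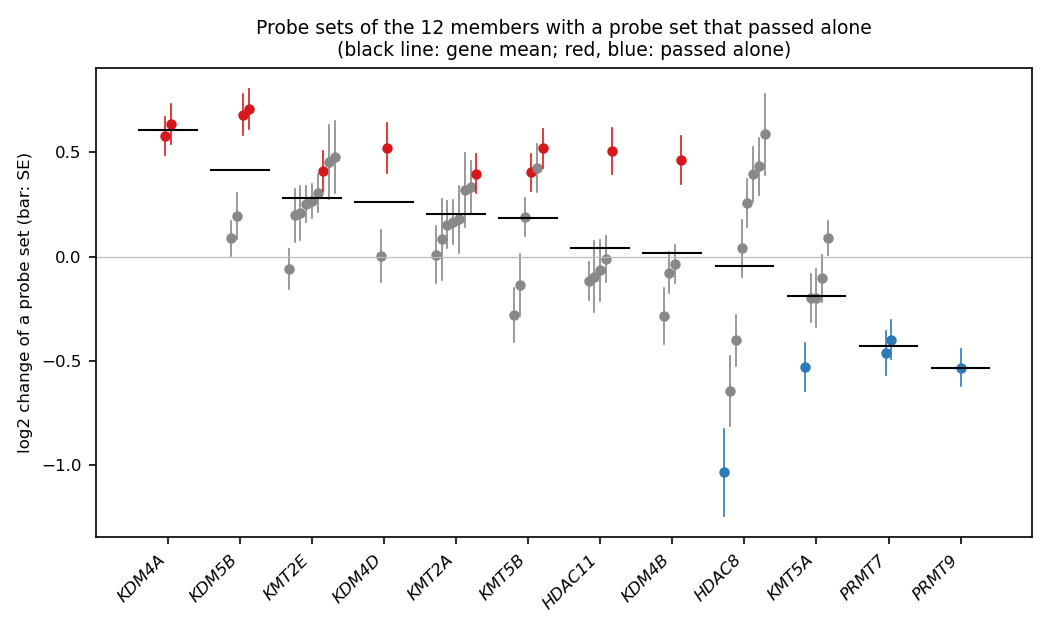
Log2 change (vertical axis, bars are SE) of each probe set of the 12 members in which at least 1 probe set passed alone, with the gene mean as a black line and probe sets that passed in red (higher) or blue (lower). The probe sets of KDM4A and PRMT7 lie together, those of KDM5B form pairs, and those of HDAC8 spread from -1.03 to 0.59.

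The acetyltransferases and sirtuins gave no call. Limma called 0 of 8 KAT genes, with 1 (KAT14) at an unadjusted p under 0.05, and 0 of 7 SIRT genes, with 1 (SIRT6) at an unadjusted p under 0.05. KAT14, a subunit of the ATAC acetyltransferase complex, read 0.00, -0.01 and 0.08 in the controls and 0.23, 0.14 and 0.29 in the treated arrays (log2 change 0.20, SE 0.07, limma adjusted p = 0.114). KAT2B (PCAF) differed by 0.10 (95% interval -0.04 to 0.24) and KAT5 (TIP60), which acetylates p53 and the androgen receptor, by 0.08 (95% interval -0.06 to 0.22). KAT2A (GCN5) differed by -0.12 (95% interval -0.35 to 0.11) and KAT8, the H4K16 acetyltransferase, by -0.12 (95% interval -0.37 to 0.13). KAT6A, KAT6B and KAT7 stood at 0.06, 0.05 and 0.03. SIRT6, a nuclear deacetylase of telomeric and glycolytic gene chromatin, read -0.03, 0.00 and -0.04 in the controls and -0.24, -0.20 and -0.18 in the treated arrays. The groups were tight and apart, at a change of -0.18 (SE 0.06, limma adjusted p = 0.105); an ordinary linear model with no sharing of variance between genes called it (adjusted p = 0.0477). SIRT1, which deacetylates p53, differed by 0.07 (95% interval -0.11 to 0.25), and the mitochondrial SIRT3, SIRT4 and SIRT5 by 0.13, 0.16 and 0.09, all with overlapping arrays. SIRT7 stood at 0.18 (95% interval -0.05 to 0.42) and SIRT2 at -0.01. Both probe sets of SIRT7 are marked as sharing sequence.

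Counted without a test, the treated arrays lay wholly outside the control range in 19 of the 71 members (26.8%, against 29.3% of all genes), 10 above (15.6% of all genes) and 9 below (13.7% of all genes). These 19 include the 6 that passed. The others below the controls were DNMT1, KDM2B, KMT5A, SETD9, PRMT6 and SIRT6, and the others above were KMT2E, SETD2, SETD5, PRMT2, KAT2B, KAT5 and KAT14.

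Genes that work with these families were examined through 9 lists of partners, chosen with earlier results of these data known. Of 146 measured genes in them, 11 rose and 17 fell, while 118 gave no call; the median difference over all of them was -0.01 (log2). Over all genes 4.85% rose and 5.31% fell, and these shares apply beside each list below. The 28 calls are 19.2% of the 146 genes, against 10.2% of all genes. Of them 13 held without each single array and 15 did not.

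In the deacetylase complexes, SAP18 rose and 3 other subunits fell, with 20 of 24 measured genes not passing. SAP18, a subunit of the SIN3 complex that also sits in splicing-dependent complexes, read 0.01, 0.02 and -0.08 in the controls and 0.86, 0.87 and 0.63 in the treated arrays, a 1.74-fold rise (log2 change 0.80, SE 0.08, limma adjusted p = 0.00101). SAP30, of the same complex, fell 1.33-fold, and TBL1X, a subunit of the NCOR complex that carries HDAC3, fell 1.34-fold. These 3 calls held without each single array, while that of CDYL (1.25-fold lower) held in the fit that left out urolithin A replicate 3 and in none of the other five, where adjusted p reached 0.103.

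Among methyltransferases outside the families, 0 of 19 rose and 4 fell. SMYD2, which methylates p53 and other proteins, read -0.12, 0.26 and 0.00 in the controls and -0.81, -0.83 and -0.79 in the treated arrays, a 1.81-fold fall (log2 change -0.86, SE 0.10, limma adjusted p = 0.00143). SETDB2, DOT1L and SMYD3 fell 1.27-fold, 1.29-fold and 1.24-fold, with less stable calls. That of SETDB2 ended when control replicate 2 or the third treated array was left out, at adjusted p of up to 0.0609. DOT1L passed in the fit that left out urolithin A replicate 1 and in no other, with adjusted p of up to 0.148, and SMYD3 in the one that left out control replicate 1, with adjusted p of up to 0.0955 in the rest. EZH2, the H3K27 methyltransferase of Polycomb complex PRC2, had a change of -0.28 that did not pass (limma adjusted p = 0.102). Of 18 PRC2 and COMPASS subunits, RBBP4, a histone chaperone that PRC2 shares with deacetylase complexes, rose 1.33-fold and AEBP2 1.20-fold, the latter call lost without any single array (adjusted p up to 0.139). RIOX2, a JmjC hydroxylase, rose 1.27-fold as the single call among 7 demethylase relatives.

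Of 29 acetyltransferases outside the families and their subunits, 3 rose and 1 fell. CREBBP, ING4 and SUPT7L rose 1.24-fold, 1.30-fold and 1.22-fold and TADA2A, an adaptor of KAT2 enzymes, fell 1.29-fold; SUPT7L passed in none of the 6 fits without an array, CREBBP only without urolithin A replicate 2, ING4 only without control replicate 3 and TADA2A only without control replicate 2, with adjusted p of up to 0.138 in the others. Of 15 reader proteins 2 rose: BRD2, which binds acetylated histones, 1.48-fold (log2 change 0.56, SE 0.07, limma adjusted p = 0.00209) and CBX5, the heterochromatin protein that binds H3K9 methylation, 1.40-fold. Both held without each single array.

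Genes that supply the cofactors split, with 2 of 15 higher and 4 lower, where 4.85% of all genes rose and 5.31% fell. MAT2A, which makes the methyl donor S-adenosylmethionine, read -0.01, -0.07 and 0.21 in the controls and -0.42, -0.70 and -0.46 in the treated arrays, a 1.49-fold fall (log2 change -0.57, SE 0.10, limma adjusted p = 0.0106). NNMT, which consumes methyl groups to methylate nicotinamide, fell 1.53-fold, and both calls held without each single array. ACLY (1.27-fold lower), a source of acetyl-CoA, passed in 2 of those 6 fits, the ones that left out control replicate 1 and urolithin A replicate 3, with adjusted p of up to 0.0827 in the rest, and NMNAT1 (1.35-fold higher), which makes nuclear NAD, in the 2 that left out control replicate 2 and urolithin A replicate 3, with adjusted p of up to 0.0918 in the rest.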

How the data were processed

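The authors deposited log2 values for 49386 probe sets on 6 arrays; the submitters' processing notes name RMA, without a version, a method of background correction, quantile normalization and probe summary. Control arrays had a median of exactly 0 in each of the 49386 probe sets, so that median had been subtracted. The base of 2 was taken from RMA and is not given in the sources used here. Array control probe sets were left out; 45253 others carry a single symbol in the platform annotation. A gene's value was the mean of its probe sets. For all 18239 genes, limma 3.58.1 under R 4.3.3 was run (lmFit, eBayes, treatment only, two-sided, Benjamini-Hochberg, threshold 0.05), and all probe sets were fitted alone in the same way. The fit was tested on simulated data. A gene's groups were called apart when the treated arrays lay all above or all below the controls.

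The members, roles and partner lists were chosen with earlier results of these data known. All members were described; values with their errors were given for those that passed, the highest and lowest of each family and 19 listed genes. At most 4 called partners a list were named, by smallest p. Other members given array by array were chosen after their values were seen. Promoter windows are from RefSeq (GRCh38.p14), and motif matching is exact. The array files name no genome build.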

Additional observations from a re-analysis of the deposited data

How the results depend on the processing

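In all, 16 alternative settings were run; scaling on the hybridization controls and leaving out both arrays numbered 3 were chosen after seeing the data. The members called were 3 higher and 3 lower. Higher calls numbered 5 with median in place of mean probe sets and 1 with hybridization control scaling; lower calls numbered 1 at a threshold of 0.01 and 0 with that scaling. Leaving out 1 array gave 2 to 3 higher and 1 to 3 lower, but not always the same members. SETD1B and PRMT3 passed in none of those 6 fits, and KDM3A, SETD9 and KDM2B each entered in 1 of them. SETD1B was also lost with a trended and robust prior (adjusted p = 0.0528) and with no moderation (adjusted p = 0.108), PRMT3 with the trended prior (adjusted p = 0.0586), and PRMT7 with no moderation (adjusted p = 0.0943). No called member changed sign; of the 30 members named by the rule that did not pass, 7 changed sign under at least 1 setting. The HDAC median, 0.01, was -0.01 without urolithin A replicate 3.

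Over all genes, 885 higher calls became 574 (trended prior), 262 (no moderation), 272 (threshold 0.01), 334 (hybridization scaling), 386 (without both arrays numbered 3) and 482 to 628 (without 1 array). The 969 lower calls became 298 (no moderation), 370 (threshold 0.01), 312 (hybridization scaling), 455 (without both arrays numbered 3) and 581 to 681 (without 1 array). The 11 higher partner calls became 7 (replicate block), 6 (trended prior), 3 (no moderation), 3 (threshold 0.01), 6 (no probe sets of shared sequence), 3 (hybridization scaling), 4 (without both arrays numbered 3) and 5 to 7 (without 1 array). The 17 lower ones became 11, 3, 4, 5 and 5 under the trended prior, no moderation, the threshold, hybridization scaling and without both arrays numbered 3, and 9 to 11 without 1 array. The cause was not tested.

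Arrays of the 2 groups share replicate numbers. The deviations of same-numbered arrays correlated at 0.08, 0.02 and 0.20, and 4 of 6 arrays correlated best with their own number. These few values do not settle whether the numbers pair the arrays. The main fit did not treat the numbers as pairs. With the replicate number as a block, 3 members were called higher and 3 lower, 860 genes higher and 1003 lower; PRMT3 no longer passed (adjusted p = 0.0597) and SETD9 did (adjusted p = 0.0196).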

Other observations

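Outside the gene-level values, 6 probe sets are listed with a member and at least 1 other gene: 3 with KMT2C, and 1 each with KAT14, HDAC10 and KMT2A. None passed limma's test over all probe sets, with 0 at an unadjusted p under 0.05. The largest difference was -0.21 for the probe set shared by MAPK12 and HDAC10 (SE 0.11, limma adjusted p = 0.319). The probe set shared by PET117 and KAT14 had a log2 change of -0.17 (SE 0.11), on the other side of 0 from the KAT14 gene value of 0.20.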
